A study of Mus musculus with 4 samples.

Results

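RAW264 macrophage-like cells transfected with small interfering RNA (siRNA) against Tfe3 and Tfeb were compared with cells transfected with siRNA against green fluorescent protein (GFP), both kept without added iron. The 24841 genes named on the arrays were filtered to the 15259 whose brightest probe was well above background on the brighter array of the pair, and these genes are described here. Of them 14314 were well above background on both arrays and have a measured difference, and 945 were above it on 1 array only and have a bound. RAW264 is an established line from a BALB/c mouse. The labels give no altered allele, so any loss of Tfe3 and Tfeb here rests on the siRNA alone. The siRNA is labelled as against both genes together, and cultures with either gene targeted singly were not analysed here. GFP is not a mouse gene, and its siRNA serves as the control. Cells were left for 48 hours after transfection and then for a further 24 hours without iron, or with 500 µM ferric chloride in the other pair of cultures. Each of the 4 groups was 1 culture read on 1 single-colour array. No test, standard error or p-value between groups is therefore possible, and every difference is one between 2 arrays.

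TFE3 and TFEB belong with MITF and TFEC to the MiT/TFE family of basic helix-loop-helix transcription factors. They are held in the cytoplasm when amino acids are plentiful and mTORC1 is active at the lysosome. When lysosomes are starved or stressed they enter the nucleus, where they bind E-boxes close to the start sites of lysosome, autophagy and nutrient sensing genes. In macrophages they are also known for a part in inflammatory gene expression. The integrated stress response is another arm of nutrient sensing: phosphorylation of the initiation factor eIF2 lowers general translation and raises translation of ATF4, which activates genes for amino acid synthesis, uptake and tRNA charging. The interferon response depends on STAT and IRF factors binding a short element in promoters of antiviral genes.

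The 75th percentile of the processed signal lay between 593 and 636 on the 4 arrays, no spot was saturated, and 14337 to 14904 genes per array were well above background. A level is given as relative signal, in which the array's 75th percentile is set to 100, and a difference is the log2 level with siTfe3/Tfeb minus that with siGFP. The median difference over the 14314 measured genes was -0.029, 86.2% of them lay within 1.5-fold, 46.5% lay above 0 and 53.5% below. By the 2-fold rule 224 genes were higher with siTfe3/Tfeb (1.47% of 15259) and 321 were lower (2.10%). Among genes measured on both arrays the counts were 199 (1.39%) and 263 (1.84%). With normexp background correction the counts were smaller, 79 higher and 155 lower. Of the 104 genes at 2-fold that are named by rule, all kept their sign with normexp, 21 fell under 2-fold and 29 moved by over 1.5 times, for example Mmp9 from -3.74 to -2.42, Cth from 2.81 to 2.06, Pycr1 from 2.65 to 1.55 and Fosl1 from -2.77 to -1.56. Those under 2-fold with normexp were mostly dim or near the threshold and include Fn3k (0.76), Erfe (0.74), Azin2 (0.85), Ypel1 (0.81), Cxcl2 (-0.78), Gbp2 (-0.81), Fabp4 (-0.94), Ctsk (-0.99), Ocstamp (-0.61) and Ccnd1 (-0.97). With the mean over all probes of a gene 11 of the 104 fell under 2-fold. The spread of probes printed many times on each array gave a spot SD of a difference of 0.06 for bright genes and 0.32 for the dimmest. That SD holds printing and scanning error and leaves out the spread between cultures. Genes past 2-fold were mostly dim: their median log2 level was -1.52 for those higher and -1.04 for those lower, against 0.67 for all measured genes. All 24 macrophage identity genes listed were measured on both arrays. Few markers of other cell types were: 3 of 9 for fibroblasts, 4 of 8 for epithelium, 2 of 8 for endothelium, 6 of 10 for lymphocytes and 3 of 12 for granulocytes and mast cells.

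**Figure D1:**
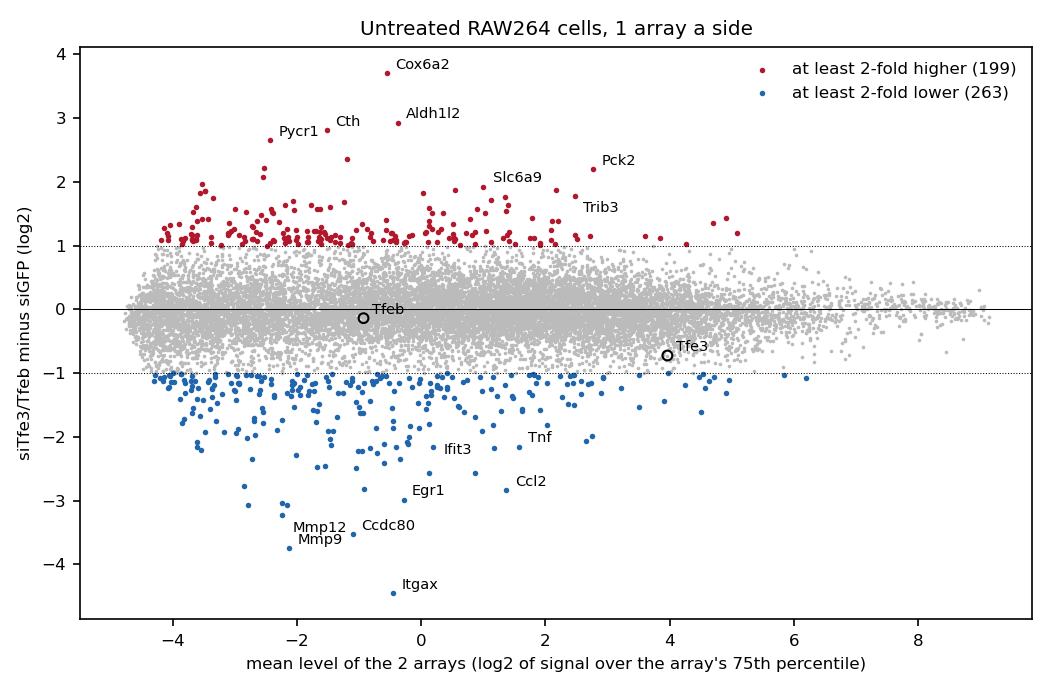
Each point is 1 of 14314 genes measured on both untreated arrays, placed by its mean log2 level (horizontal) and its log2 difference, siTfe3/Tfeb minus siGFP (vertical). Dotted lines mark 2-fold, red points are the 199 genes at least 2-fold higher, blue points the 263 at least 2-fold lower, and circles mark the targeted genes Tfe3 and Tfeb. Tfe3 lies at -0.72 and Tfeb at -0.14, and the differences of Itgax and Mmp9 exceed those of the targets many times over.

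Tfe3 was lower and Tfeb was near its control level. The bright Tfe3 probe read 2005 with siGFP and 1216 with siTfe3/Tfeb (60.6% left), and 1803 and 1234 on the iron arrays (68.4% left). It was lower on both siTfe3/Tfeb arrays than on both siGFP arrays. Its untreated difference of -0.72 is many times its spot SD of 0.06, which leaves out the spread between cultures. The 5th percentile of the difference over all 14314 measured genes was -0.70. The dim second Tfe3 probe read 4.45 with siGFP and 2.16 with siTfe3/Tfeb, where it was not well above background. The brightest Tfeb probe read 55.1 with siGFP and 50.1 with siTfe3/Tfeb (91.0%), and 50.8 and 56.96 on the iron arrays (112%). The 3 other Tfeb probes stood at 88.3%, 105% and 88.3% of control, differences between -0.18 and 0.076 against a spot SD of 0.12 or more. Of the 2 family members outside the siRNA's labelled targets, Mitf stood at 93.7% of control. Tfec, a family member largely of myeloid cells, was dim, at 6.71 with siGFP and 4.27 with siTfe3/Tfeb. Since Tfeb transcript was not clearly reduced, the name siTfe3/Tfeb stands for the array and its label only. What the level of either protein was is not analysed here.

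Most listed regulators of the integrated stress response lay above 0 with siTfe3/Tfeb. Of 18 listed regulators 16 were measured, 13 lay above 0 and 4 were at least 2-fold higher, with a median difference of 0.63 against -0.029 for all genes (1.39% of all measured genes were 2-fold higher). Trib3, a pseudokinase induced by ATF4 and CHOP, read 299.8 with siGFP and 1035 with siTfe3/Tfeb (3.45-fold), and 336 and 727 on the iron arrays. Chac1, which degrades glutathione, read 139 with siGFP and 469 with siTfe3/Tfeb (3.38-fold), and 168 and 378 on the iron arrays. For both genes the 2 siTfe3/Tfeb arrays lay above the 2 siGFP arrays. Ddit3, encoding the transcription factor CHOP, read 69.4 with siGFP and 162 with siTfe3/Tfeb (2.33-fold), although its dimmer second probe differed by only 0.11. Ddit4, an inhibitor of mTORC1 signalling, read 1343 with siGFP and 2744 with siTfe3/Tfeb (2.04-fold). Atf3, a stress-induced repressor, and Nupr1, a small stress-induced chromatin protein, lay just under 2-fold at 0.96 and 0.998. Atf4 transcript itself, a gene named after its value was seen, was higher by only 0.45. At the other end Cebpb stood at -0.18 and Stc2 at -0.11, and the phosphatase subunit Ppp1r15a stood at its control level, so not all regulators lay above 0.

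Enzymes that make amino acids and feed one-carbon units into folate held the largest higher values of any listed group. Of 17 enzymes of proline, cysteine, alanine and asparagine metabolism all were measured and 12 lay above 0, with a median of 0.36. At least 2-fold higher were 5, against 1.39% of all measured genes, and 0 were 2-fold lower. Cth, which makes cysteine from cystathionine, read 13.2 with siGFP and 92.5 with siTfe3/Tfeb (7.01-fold), and 21.1 and 44.5 on the iron arrays. Pycr1, the mitochondrial last step of proline synthesis, read 7.35 with siGFP and 46.3 with siTfe3/Tfeb (6.297-fold), and 3.58 and 17.7 on the iron arrays. Its other probe, also dim, differed by only 0.67, under 2-fold. Pck2, the mitochondrial phosphoenolpyruvate carboxykinase, read 317 with siGFP and 1457 with siTfe3/Tfeb (4.602-fold), and 285 and 663 on the iron arrays. In all 3 genes the 2 siTfe3/Tfeb arrays stood above the 2 siGFP arrays, and the untreated array with siTfe3/Tfeb stood highest. Gpt2, an alanine transaminase, read 76.3 with siGFP and 280.4 with siTfe3/Tfeb (3.68-fold), and its other probe also differed by 1.75. Asns, asparagine synthetase, read 2234 with siGFP and 5108 with siTfe3/Tfeb (2.29-fold), while the iron pair differed by only 0.20. Aldh18a1, the first enzyme of proline synthesis, was at 0.89. Prodh, which degrades proline, stood at -0.68.

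Of 12 enzymes of serine synthesis and the folate cycle 8 lay above 0, 2 were 2-fold higher and 1 was 2-fold lower (median 0.32). Over all measured genes 1.39% were 2-fold higher and 1.84% 2-fold lower. Aldh1l2, a mitochondrial formyltetrahydrofolate dehydrogenase, read 27.9 with siGFP and 213 with siTfe3/Tfeb (7.63-fold), and 27.2 and 84.8 on the iron arrays. Psph, the last step of serine synthesis, read 812 with siGFP and 1805 with siTfe3/Tfeb (2.22-fold). The first step, Phgdh, was at 0.64, and the mitochondrial enzymes Mthfd2 and Shmt2 at 0.96 and 0.72. Among the cytosolic members Shmt1 read 68.3 with siGFP and 31.2 with siTfe3/Tfeb (-1.13) with its other probe at -0.86, and Mthfd1 differed by -0.64, with its other probe at -0.013. Of these named enzymes Aldh1l2, Psph and Shmt1 passed 2-fold.

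Of 18 measured amino acid transporters 11 lay above 0, with a median of 0.12, and 1 was 2-fold in each direction. Among all measured genes 1.39% were 2-fold higher and 1.84% 2-fold lower. The glycine transporter Slc6a9 read 235 with siGFP and 861 with siTfe3/Tfeb (3.66-fold), and 249.6 and 537 on the iron arrays. Slc3a2, the heavy chain of several amino acid exchangers, was at 0.66, but its 2 other probes lay at 0.69 and -0.11. Slc16a10, an aromatic amino acid transporter, read 334 with siGFP and 141 with siTfe3/Tfeb (-1.24), with other probes at -0.60 and 0.50, so its direction depends on the probe. Cytosolic aminoacyl-tRNA synthetases, which charge tRNAs, had 14 of 19 above 0 and none at 2-fold (median 0.39). The largest were Cars at 0.91, Lars at 0.73 and Sars at 0.72, and Hars (-0.41) and both subunits of the phenylalanine enzyme, Farsa (-0.39) and Farsb (-0.25), lay below 0. The mitochondrial synthetases, made by separate genes, had 6 of 17 above 0 and a median of -0.14. The medians of the cytosolic and mitochondrial sets lay on opposite sides of 0, a difference between lists that was not tested.

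Promoters of the amino acid genes were read for the core of the amino acid response element, because ATF4 with a C/EBP partner is known to bind it. TGATGCAA was searched on both strands in the 250 bases before each start in the RefSeq promoter table (build GRCm38.p6). It was found in 0.791% of 32851 promoters and in 0.775% of measured genes with a promoter in the table. It was found in 9 of 79 (11.4%) promoters of the listed stress response, amino acid and tRNA synthetase genes, and in 2 of the 10 of these that were 2-fold higher, Chac1 and Pycr1. The others were Atf3, Nupr1, Got1, Slc7a7, Slc7a11, Aars and Tars. These lists were drawn up around this response, so their share is no independent result. Of genes of any kind with a promoter in the table, 2 of 160 that were 2-fold higher carried it (1.25%). Of those 2-fold lower, 2 of 212 did (0.943%). Slc7a11, the cystine transporter, carried 2 matches in opposite orientation and its transcript differed by only -0.050. A match is a description of these letters and shows no binding, and Trib3, among the largest differences, has none in this window. Windows of 100 bases from 5 of these promoters are given 5′ to 3′ on the gene's strand, with the match in capitals, in order of the transcript's difference. They lie at chr11:120643798-120643897 (minus strand, Pycr1), chr2:119351003-119351102 (plus strand, Chac1), chr7:126625527-126625626 (minus strand, Nupr1), chr1:191183390-191183489 (minus strand, Atf3) and chr3:50443626-50443725 (minus strand, Slc7a11).
Pycr1: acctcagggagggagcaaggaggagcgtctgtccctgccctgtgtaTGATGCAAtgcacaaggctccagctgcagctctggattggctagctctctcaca
Chac1: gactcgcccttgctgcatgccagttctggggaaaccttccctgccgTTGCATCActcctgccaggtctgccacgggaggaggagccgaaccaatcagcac
Nupr1: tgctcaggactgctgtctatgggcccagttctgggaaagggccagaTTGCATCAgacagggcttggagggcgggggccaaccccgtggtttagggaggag
Atf3: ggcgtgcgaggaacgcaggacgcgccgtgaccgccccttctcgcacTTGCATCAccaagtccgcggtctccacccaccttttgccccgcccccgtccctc
Slc7a11: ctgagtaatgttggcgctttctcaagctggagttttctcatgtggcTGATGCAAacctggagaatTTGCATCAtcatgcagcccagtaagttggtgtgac
The same 8 letters stand upstream of genes whose differences ran from -0.050 (Slc7a11) to 2.65 (Pycr1).

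Chaperones of the endoplasmic reticulum (ER), which the ATF6 and XBP1 arms of the unfolded protein response control, lay mostly below 0. Of 28 measured ER folding and degradation genes 21 lay below 0, 4 were at least 2-fold lower and 0 were 2-fold higher (median -0.30; 1.84% of all measured genes were 2-fold lower). Hspa5, the ER Hsp70 chaperone, read 10619 with siGFP and 5032 with siTfe3/Tfeb (2.11-fold lower), and 11313 and 7466 on the iron arrays, with its other probes at -1.38 and -1.28. Manf, a secreted ER stress protein, read 969 with siGFP and 430.0 with siTfe3/Tfeb (2.25-fold lower). Creld2 read 4572 with siGFP and 2128 with siTfe3/Tfeb and Sdf2l1 read 1099 with siGFP and 523 with siTfe3/Tfeb, 2.15-fold and 2.100-fold lower. Both are ER proteins known to be induced by ER stress, and all 4 genes were bright, where the spot SD is smallest. Calr, the lectin chaperone calreticulin, was at -0.92. Ero1a, the oxidase that recharges disulfide exchange, went the other way at 0.95. The disulfide isomerase P4hb lay at 0.48, though its second probe was of opposite sign. Cytosolic and mitochondrial heat shock chaperones had 3 of 19 above 0, with a median of -0.25 and none at 2-fold. Hspa1b was at -0.95, Hsph1 at -0.77 and Hsp90aa1 at -0.66. The median of the ER list (-0.30) and that of the stress response regulators (0.63) thus had opposite signs on the same pair of arrays.

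**Figure D2:**
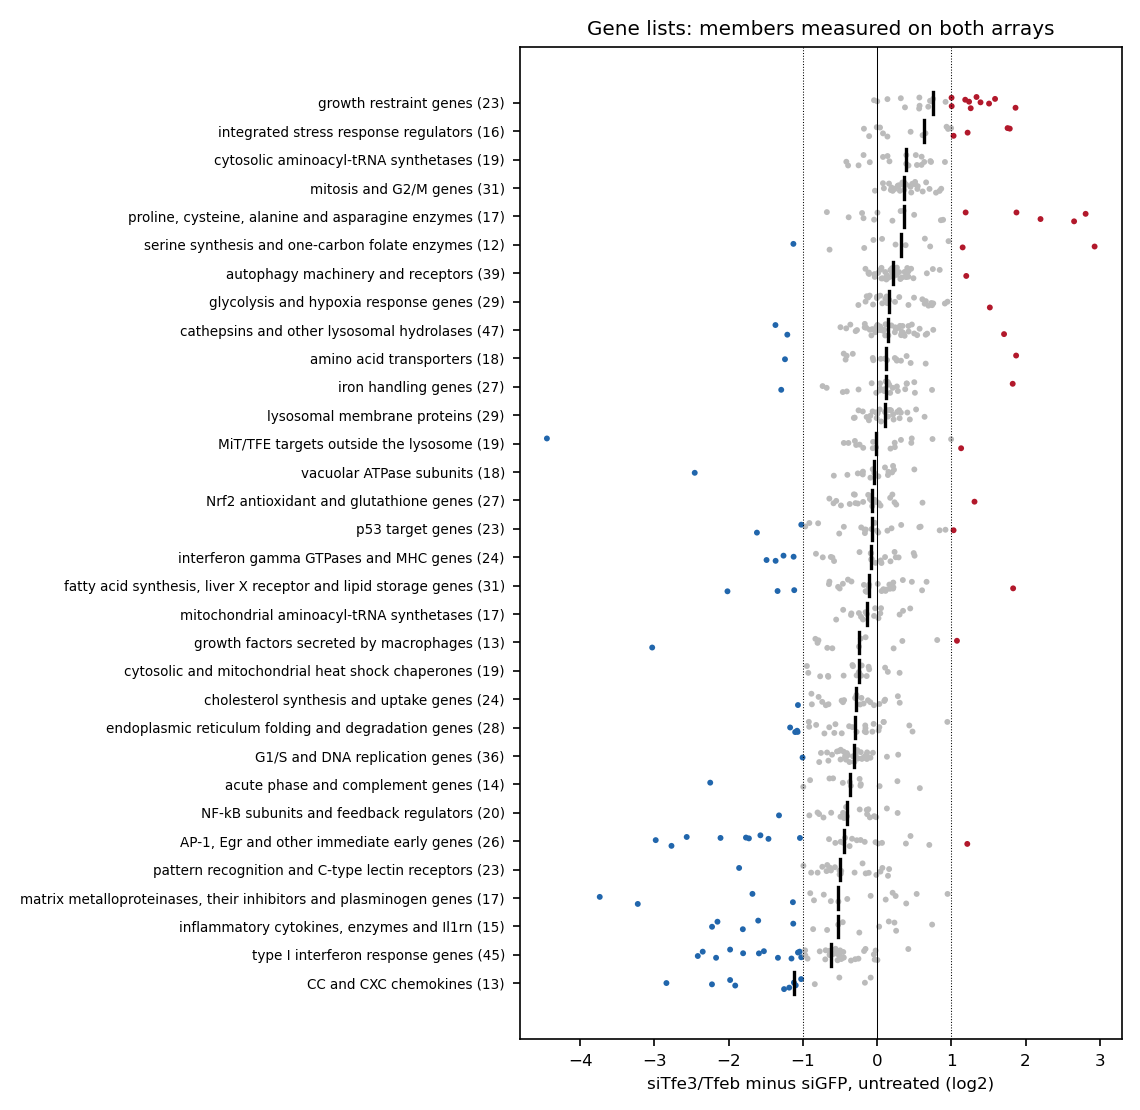
Each row is a gene list with its number of members measured on both untreated arrays in brackets, each point is a member's log2 difference (siTfe3/Tfeb minus siGFP), and the black bar is the list median. Dotted lines and colours mark 2-fold, and vertical scatter within a row has no meaning. Growth restraint genes (median 0.76) and integrated stress response regulators (0.63) lie highest, and chemokines (-1.12) and type I interferon response genes (-0.62) lowest. The lists were chosen with earlier results of these data known.

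Type I interferon response genes lay below 0 almost throughout. All 45 on the arrays were measured, 43 lay below 0, 12 were at least 2-fold lower and 0 were 2-fold higher, with a median of -0.62. Over all measured genes 53.5% lay below 0 and 1.84% were 2-fold lower. Ifit1, an antiviral protein that binds foreign RNA caps, read 152 with siGFP and 28.5 with siTfe3/Tfeb (5.34-fold lower), and 90.1 and 32.1 on the iron arrays. Rsad2, the antiviral radical SAM enzyme viperin, read 418 with siGFP and 119.7 with siTfe3/Tfeb (3.49-fold lower), and 305 and 168 on the iron arrays. Cmpk2, its genomic neighbour and a nucleotide kinase, read 423 with siGFP and 140.5 with siTfe3/Tfeb (3.01-fold lower). Ifit3 read 476 with siGFP and 106 with siTfe3/Tfeb and Ifit3b read 179 with siGFP and 35.1 with siTfe3/Tfeb. These 2 genes are near-identical copies whose probes may not tell them apart. In Ifit1, Ifit3, Rsad2 and Cmpk2 the 2 siTfe3/Tfeb arrays lay below the 2 siGFP arrays. The 2 members above 0 were Ms4a4c, which stood at its control level, and Ifi27l2a (0.42), whose dimmer second probe lay at -0.54. Among 24 measured interferon gamma GTPases and MHC genes the named GTPases and MHC genes differed. Ifi47 (-1.49), Irgm1 (-1.37), Gbp2 (-1.26) and Igtp (-1.12), GTPases that act on vacuoles of intracellular microbes, were at least 2-fold lower. H2-K1, a class I MHC chain, was at 0.51, the peptide transporter Tap1 at 0.49 and the class II chain H2-Ab1 at 0.29. The list median was -0.079, and 4 of its members were at least 2-fold lower, against 1.84% of all measured genes.

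The interferon-stimulated response element core GAAANNGAAA, searched on both strands of the same 250 bases, was found in 2.98% of 32851 promoters and in 3.34% of measured genes. It was found in 14 of 32 type I interferon response genes with a promoter in the table (43.8%), in 6 of the 9 of these that were 2-fold lower, and in 9.91% of the 212 genes of any kind that were 2-fold lower. Of genes 2-fold higher 5 of 160 carried it (3.12%). The interferon list was drawn up from genes known to respond to interferon, so its share is no independent result. Windows of 4 carriers, picked from genes 2-fold lower and so not standing for all carriers, show how the matches are placed, in capitals. They lie at chr19:34640739-34640838 (plus strand, Ifit1), chr19:34583327-34583426 (plus strand, Ifit3), chr5:92349040-92349139 (minus strand, Cxcl10) and chr12:26456519-26456618 (minus strand, Rsad2).
Ifit1: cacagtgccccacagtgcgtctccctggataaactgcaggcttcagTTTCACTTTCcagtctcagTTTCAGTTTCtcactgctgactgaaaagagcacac
Ifit3: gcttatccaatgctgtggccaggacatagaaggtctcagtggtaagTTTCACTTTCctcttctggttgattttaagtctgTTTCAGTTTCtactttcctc
Cxcl10: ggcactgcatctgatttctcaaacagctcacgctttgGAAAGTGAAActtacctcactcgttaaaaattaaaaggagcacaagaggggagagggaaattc
Rsad2: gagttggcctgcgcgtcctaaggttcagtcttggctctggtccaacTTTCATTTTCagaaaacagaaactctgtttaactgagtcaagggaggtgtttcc
Ifit1 and Ifit3 carry 2 matches each, and Cxcl10 and Rsad2 carry 1 each. The window of Ifit3b has the same letters as that of Ifit3. Listed carriers not shown had differences from -2.35 (Ifit3b) to -0.020 (Bst2).

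All 13 measured CC and CXC chemokines were below 0, 9 of them at least 2-fold, with a median of -1.12. Over all measured genes 53.5% lay below 0 and 1.84% were 2-fold lower. Ccl2, which draws monocytes through CCR2, read 692 with siGFP and 96.8 with siTfe3/Tfeb (7.15-fold lower), and 3039 and 422 on the iron arrays. Ccl12, a further ligand of CCR2, read 112 with siGFP and 23.97 with siTfe3/Tfeb (4.67-fold lower). Cxcl10, which draws activated T cells through CXCR3, read 1342 with siGFP and 340.1 with siTfe3/Tfeb (3.95-fold lower), and 977 and 566 on the iron arrays. Ccl6 read 383 with siGFP and 102 with siTfe3/Tfeb, and 731 and 136 on the iron arrays. For Ccl2 the iron array with siTfe3/Tfeb lay below both siGFP arrays even though the siGFP level was higher with iron. Ccl4, a chemokine that draws monocytes, was at -1.18, and Cxcl2, a neutrophil chemokine, at -1.25.

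Of 15 measured cytokines and inflammatory enzymes 10 lay below 0 and 5 were at least 2-fold lower, against 1.84% of all measured genes. The median was -0.52, and 6 more listed genes were below background on both arrays. Il1b read 107 with siGFP and 22.9 with siTfe3/Tfeb (4.67-fold lower), and Tnf read 631 with siGFP and 142 with siTfe3/Tfeb (4.44-fold lower), each with a second probe of the same sign. Il1rn, the secreted antagonist of the interleukin 1 receptor, was lower as well, at 762 with siGFP and 218 with siTfe3/Tfeb (3.503-fold). Acod1, the itaconate-producing enzyme, read 3959.5 with siGFP and 1305 with siTfe3/Tfeb (3.03-fold lower), with an iron-pair difference of only -0.32. Ltb, lymphotoxin beta, was at -1.13. Nos2 was at 0.23. The bright Ptges probe was at 0.26, but its 2 other probes, both dim, lay at -1.18 and -0.59, so its direction depends on the probe. NF-kB subunits and feedback genes had 18 of 20 below 0 with a median of -0.41, and 1, the adaptor Traf1 (-1.32), passed 2-fold. Nfkbia, the inhibitor that NF-kB itself induces, was at -0.62 without iron and 0.0082 with it. The median of this list was -0.012 in the iron pair.

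Receptors for microbial products lay mostly below 0 by less than 2-fold. Of 23 measured pattern recognition and lectin receptors 19 lay below 0 (median -0.51). Clec4n, the lectin dectin-2, read 185 with siGFP and 50.99 with siTfe3/Tfeb (3.63-fold lower). Clec5a was at -0.99, the scavenger receptor Msr1 at -0.89 and the lipopolysaccharide co-receptor Cd14 at -0.74. Tlr4 (0.15) and Tlr9 (0.072) were close to their control levels. Acute phase and complement genes had 11 of 14 below 0 (median -0.36). The formyl peptide receptor Fpr2 read 133 with siGFP and 27.95 with siTfe3/Tfeb (4.75-fold lower), but 22.9 and 16.5 on the iron arrays, so the size of its difference was seen in the untreated pair only. The complement receptor C5ar1 was at -0.99.

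Immediate early genes, transcribed within minutes of growth factor or stress signals, were lower in part. Of 26 measured 20 lay below 0 and 9 were at least 2-fold lower (against 1.84% of all measured genes), with a median of -0.44. Egr1 read 231 with siGFP and 29.2 with siTfe3/Tfeb (7.903-fold lower), and 217 and 120.1 on the iron arrays. Egr2 read 264 with siGFP and 44.6 with siTfe3/Tfeb (5.92-fold lower) and Egr3 read 38.3 with siGFP and 11.6 with siTfe3/Tfeb (3.31-fold lower). Fos read 179 with siGFP and 41.4 with siTfe3/Tfeb (4.32-fold lower), and Fosl1, a Fos relative that accumulates under sustained ERK signalling, read 36.1 with siGFP and 5.297 with siTfe3/Tfeb (6.82-fold lower). Dusp5, a phosphatase that ERK induces and that acts on ERK, read 56.8 with siGFP and 16.7 with siTfe3/Tfeb (3.402-fold lower). At the list's other end the Krüppel-like factor Klf4 read 78.9 with siGFP and 183 with siTfe3/Tfeb (2.32-fold higher) and Klf2 was at 0.70. Both were named because their sign was opposite to that of the list median. Among secreted growth factors Areg, an EGF receptor ligand, read 60.2 with siGFP and 7.37 with siTfe3/Tfeb (8.17-fold lower), and Vegfa read 183 with siGFP and 386 with siTfe3/Tfeb (2.11-fold higher). Of the 3 other Vegfa probes 2 lay at 1.08 and 0.95, and the dimmest at -0.043.

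The surface integrin Itgax and the metalloproteinases Mmp9 and Mmp12 were among the genes with the largest lower values. Itgax encodes the integrin alpha chain CD11c and is listed here among MiT/TFE targets outside the lysosome. It read 340.3 with siGFP and 15.6 with siTfe3/Tfeb (21.8-fold lower), and 720.0 and 63.00 on the iron arrays. Mmp9, gelatinase B, read 83.6 with siGFP and 6.27 with siTfe3/Tfeb (13.3-fold lower), and 29.2 and 7.48 on the iron arrays. Mmp12, macrophage elastase, read 64.5 with siGFP and 6.899 with siTfe3/Tfeb (9.35-fold lower), and 356 and 35.6 on the iron arrays, and its dimmer probe differed by -1.69. In all 3 genes both siTfe3/Tfeb arrays lay below both siGFP arrays. Plaur, the urokinase receptor, read 328 with siGFP and 102 with siTfe3/Tfeb (3.202-fold lower) and Procr, the protein C receptor, was at -1.13. Timp2, an inhibitor of metalloproteinases, lay at 0.95. The protease list as a whole had 11 of 17 below 0 and a median of -0.52.

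**Figure D3:**
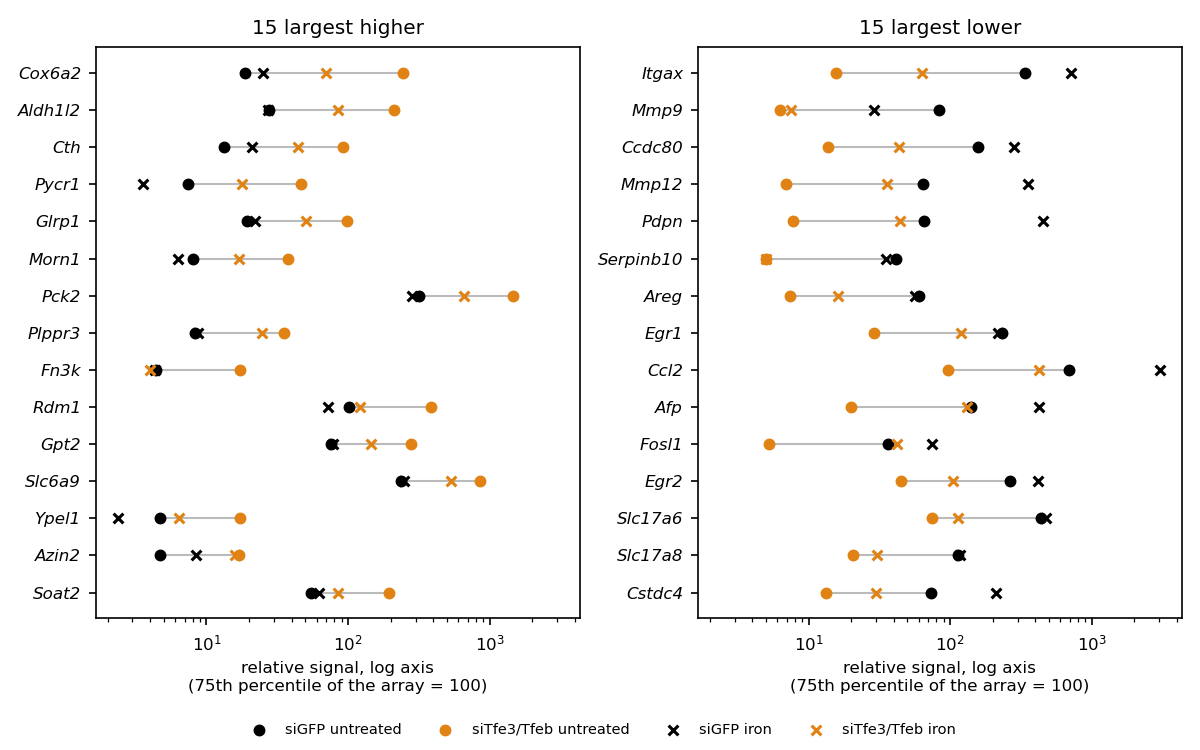
Relative signal (log axis, 75th percentile of each array set to 100) of the 15 genes with the largest higher and the 15 with the largest lower differences between the untreated arrays. Circles are untreated and crosses iron arrays, black siGFP and orange siTfe3/Tfeb, and a grey line joins the untreated pair. For Itgax the untreated points lie at 340.3 and 15.6, and for Cox6a2 at 18.8 and 246.

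Several of the largest differences were in genes of other kinds. Cox6a2, a cytochrome c oxidase subunit best known from muscle, read 18.8 with siGFP and 246 with siTfe3/Tfeb (13.1-fold higher), and 25.03 and 69.4 on the iron arrays. Glrp1 read 19.2 with siGFP and 98.6 with siTfe3/Tfeb, Morn1 8.04 with siGFP and 37.5 with siTfe3/Tfeb and Plppr3 8.34 with siGFP and 35.3 with siTfe3/Tfeb. Azin2, an antizyme inhibitor in polyamine control, read 4.703 with siGFP and 16.99 with siTfe3/Tfeb, and Fn3k, which removes fructosamines from proteins, 4.38 with siGFP and 17.1 with siTfe3/Tfeb. The other measured probe of Morn1 differed by 0.65, that of Plppr3 by 0.064 and that of Azin2 by 0.85, all under 2-fold. Morn1, Plppr3, Azin2 and Fn3k were dim on the siGFP array, where the spot SD of a difference is 0.26 or more. Fn3k read 4.32 and 4.02 on the iron arrays and so was not higher there. On the lower side Ccdc80, a secreted matrix protein, read 159 with siGFP and 13.8 with siTfe3/Tfeb (11.5-fold), and Pdpn, the mucin-type glycoprotein podoplanin, 64.9 with siGFP and 7.73 with siTfe3/Tfeb (8.397-fold). Serpinb10, a protease inhibitor, read 41.8 with siGFP and 4.99 with siTfe3/Tfeb, and Cstdc4, a stefin-family cystatin, 73.1 with siGFP and 13.2 with siTfe3/Tfeb. The vesicular glutamate transporters Slc17a6 (441 with siGFP and 74.7 with siTfe3/Tfeb) and Slc17a8 (115 with siGFP and 20.5 with siTfe3/Tfeb) were both lower, by 5.905-fold and 5.59-fold. Afp, the fetal plasma protein alpha-fetoprotein, read 139.6 with siGFP and 19.9 with siTfe3/Tfeb, and 422 and 131 on the iron arrays. These genes fell into no shared list, and all but Fn3k kept their direction in the iron pair.

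Where a gene was well above background on 1 array only, its fold was taken against the lowest well-above-background signal of the dim array or the gene's own signal there, whichever was higher. By the 2-fold rule 25 of the 945 such genes were higher and 58 lower. Of genes measured on both arrays 1.39% were 2-fold higher and 1.84% 2-fold lower. The direction of a bound is set by which array the gene was above background on, so these counts are a description only. Nrbp2 was at least 5.85-fold higher, Tbx6 at least 4.03-fold and Rnf122 at least 3.16-fold. Wdr95 was at least 7.29-fold lower, the serotonin transporter Slc6a4 at least 7.21-fold and tenascin C (Tnc) at least 4.602-fold. The calprotectin subunits S100a8 (at least 3.82-fold lower) and S100a9 (at least 2.404-fold) were also well above background with siGFP only. These listed granulocyte markers are not among the largest bounds and were named after their values were seen.

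Genes of the lysosome, the best known MiT/TFE targets, differed little. Of 47 lysosomal hydrolases all were measured and 32 lay above 0 (median 0.15), of 29 lysosomal membrane proteins 19 (median 0.11), and of 18 vacuolar ATPase subunits 8 (median -0.048, or 0.053 with the mean over all probes of a gene). Hyal1, a hyaluronidase, read 121 with siGFP and 396 with siTfe3/Tfeb (3.27-fold higher), and its 2 other probes differed by 1.88 and 2.15. Naglu, a glycosidase, was at 0.66. The calcium channel Mcoln1 was at 0.44 and the endolysosomal cation channel Tpcn1 at 0.64. Lower by 2-fold were 3 lysosomal genes that osteoclasts are known for. Atp6v0d2 read 80.00 with siGFP and 14.6 with siTfe3/Tfeb (5.49-fold lower), and 406 and 93.9 on the iron arrays, Acp5, the tartrate-resistant phosphatase, read 208 with siGFP and 80.6 with siTfe3/Tfeb, and Ctsk, cathepsin K, 75.4 with siGFP and 32.6 with siTfe3/Tfeb. With Mmp9 and the fusion protein Ocstamp (-1.03) these made 5 of 15 measured osteoclast genes 2-fold lower, against 1.84% of all measured genes. Dcstamp, its partner in fusion, was at -0.87, while Nfatc1, the factor that drives osteoclast formation, was at 0.65.

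Autophagy genes lay above 0 in 33 of 39 cases, with a median of 0.21 in the untreated pair and 0.21 in the iron pair. Wipi1, which binds phosphatidylinositol 3-phosphate on forming autophagosomes, read 108 with siGFP and 249 with siTfe3/Tfeb (2.300-fold higher), and 99.8 and 223 on the iron arrays, with its dim other probes at 0.88 and 0.66. The initiating kinase Ulk1 was at 0.84, Map1lc3a at 0.75 and the receptor Tax1bp1 at 0.67. Other listed MiT/TFE targets were divided, with 9 of 19 above 0 and a median of -0.014, a sign that turned with quantile normalization (0.044). Bhlhe41, a transcriptional repressor, was at 1.13, with its other probe at 0.91, and Fnip2 and Fnip1, partners of folliculin, at 0.75 and 0.46.

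The E-box TCACGTGA that MiT/TFE factors are known to bind, a palindrome and so the same on both strands, was found in 0.785% of 32851 promoters and in 1.61% of measured genes. It was found in 9 of 119 promoters of listed lysosome, autophagy and MiT/TFE target genes (7.56%). Of genes 2-fold higher 1 of 160 carried it (0.625%) and of genes 2-fold lower 2 of 212 (0.943%). Both shares are below that of measured genes but rest on 1 and 2 genes. Windows of 4 carriers are shown, picked because their transcripts differed little or were higher, so they do not stand for all carriers. They lie at chr16:44139338-44139437 (minus strand, Atp6v1a), chr8:3500419-3500518 (plus strand, Mcoln1), chrX:134601156-134601255 (minus strand, Gla) and chr7:142387873-142387972 (minus strand, Ctsd).
Atp6v1a: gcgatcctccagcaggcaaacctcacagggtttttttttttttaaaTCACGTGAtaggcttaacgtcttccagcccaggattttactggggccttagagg
Mcoln1: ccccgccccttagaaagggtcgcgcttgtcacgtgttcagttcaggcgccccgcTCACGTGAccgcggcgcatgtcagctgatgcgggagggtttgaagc
Gla: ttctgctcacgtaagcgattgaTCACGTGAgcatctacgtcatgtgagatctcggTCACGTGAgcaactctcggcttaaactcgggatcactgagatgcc
Ctsd: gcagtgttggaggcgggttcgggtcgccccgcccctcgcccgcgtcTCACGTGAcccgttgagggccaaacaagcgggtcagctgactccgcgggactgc
The 4 transcripts, looked up for the motif, differed by 0.50 (Atp6v1a), 0.44 (Mcoln1), -0.0091 (Gla) and -0.15 (Ctsd), and Gla carries 2 matches. The listed carriers not shown differed by -0.31 (Cln3, the lowest), 0.25 (Ctsa), 0.19 (Cd164), 0.15 (Pip4p1) and 0.13 (Atg3).

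Fatty acid, liver X receptor and lipid storage genes showed single large differences rather than a common shift. Cd36, the fatty acid and oxidised lipoprotein receptor, read 28.8 with siGFP and 7.11 with siTfe3/Tfeb (4.04-fold lower), and 68.96 and 12.01 on the iron arrays. Fabp4, a fatty acid carrier, read 41.3 with siGFP and 16.3 with siTfe3/Tfeb (2.53-fold lower) and Nr1h3, the liver X receptor alpha, was at -1.12, with its other probe at -0.83. Soat2, which esterifies cholesterol, read 54.3 with siGFP and 193 with siTfe3/Tfeb (3.56-fold higher), with 62.5 and 84.5 on the iron arrays. The list of 31 fatty acid and liver X receptor genes had 15 above 0 and a median of -0.11. Cholesterol synthesis and uptake genes, which SREBP2 drives, had 19 of 24 below 0 (median -0.28). Hsd17b7 was at -1.07 and Idi1 at -0.88. The iron-pair median of that list was -0.075.

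Iron handling genes had 19 of 27 above 0 and a median of 0.12. Tfrc, the transferrin receptor, read 80.8 with siGFP and 32.99 with siTfe3/Tfeb (2.45-fold lower), and 43.6 and 24.01 on the iron arrays, with a second probe at -1.44. Slc39a14, an importer of non-transferrin iron, was at -0.73. Erfe, a hormone of the erythroid line, was dim at 4.52 with siGFP and 16.03 with siTfe3/Tfeb and differed by 0.17 in the iron pair. Nrf2 antioxidant and glutathione genes had 8 of 27 above 0 (median -0.073), with Srxn1 at -0.59 and Txnrd1 at -0.55. The glutathione transferase Gstm1 read 68.97 with siGFP and 171 with siTfe3/Tfeb (2.48-fold higher), and 291 and 607 on the iron arrays. The array annotation places that probe on chromosome 5, whereas RefSeq places the gene on chromosome 3, where its second probe differed by 1.16. Glycolysis and hypoxia response genes had 21 of 29 above 0, with a median of 0.16 and 0.30 in the iron pair. Adm, the peptide adrenomedullin, read 120.3 with siGFP and 345 with siTfe3/Tfeb (2.87-fold higher), and 168 and 477 on the iron arrays. Bnip3 was at 0.95, Ndrg1 at 0.91 and Pdk1 at 0.73, all under 2-fold, and the glucose transporter Slc2a1 was at -0.16.

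Growth restraint genes, many of them targets of FOXO factors or antagonists of Myc, had 22 of 23 measured members above 0, 10 of them at least 2-fold. They had the highest median of the lists (0.76, and 0.68 in the iron pair). Over all measured genes 46.5% lay above 0 and 1.39% were 2-fold higher. The list, like the others, was chosen with earlier results of these data known, so its shares and rank are no independent result. Klhl24 read 75.8 with siGFP and 216 with siTfe3/Tfeb (2.85-fold higher), and 50.6 and 148 on the iron arrays. Pik3ip1, an inhibitor of phosphoinositide 3-kinase, read 62.8 with siGFP and 189 with siTfe3/Tfeb (3.01-fold higher), although 1 of its 2 other probes was of opposite sign. Ypel3, linked to growth arrest, read 266 with siGFP and 699 with siTfe3/Tfeb (2.63-fold higher) and Arrdc4, an arrestin that lowers glucose uptake, 89.96 with siGFP and 228 with siTfe3/Tfeb (2.53-fold higher), with its dimmer probe at 0.66. Mxd1, which competes with Myc for Max, read 35.4 with siGFP and 84.9 with siTfe3/Tfeb, but its second probe lay at -0.18. Ypel1 was dim, at 4.71 with siGFP and 17.2 with siTfe3/Tfeb. The member at the other end, Btg1, was at -0.041.

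Cell cycle genes parted by phase. Of 36 G1/S and DNA replication genes 34 lay below 0, with a median of -0.31 and with Ccnd1, cyclin D1, as the 1 member at 2-fold (2234 with siGFP and 1114 with siTfe3/Tfeb). Among all measured genes 1.84% were 2-fold lower. The replication helicase subunit Mcm4 was at -0.78, Cdc6 at -0.76, the ribonucleotide reductase subunit Rrm2 at -0.66 and Pcna at -0.61. Of 31 mitosis and G2/M genes 30 lay above 0, with a median of 0.37 and none at 2-fold. Cdc25b, a phosphatase that activates Cdk1, was at 0.86, Nusap1 at 0.84 and Ccnb2, cyclin B2, at 0.79. In the iron pair 2 of 35 measured G1/S genes and 25 of 31 mitotic genes lay above 0. In RNA from a whole culture, fewer cells in a phase and less transcript per cell cannot be told apart. Among 23 measured p53 target genes 9 lay above 0 (median -0.074), with Plk3 at -1.62, Phlda3 at -1.02 and Trp53inp1 at 0.92.

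**Figure D4:**
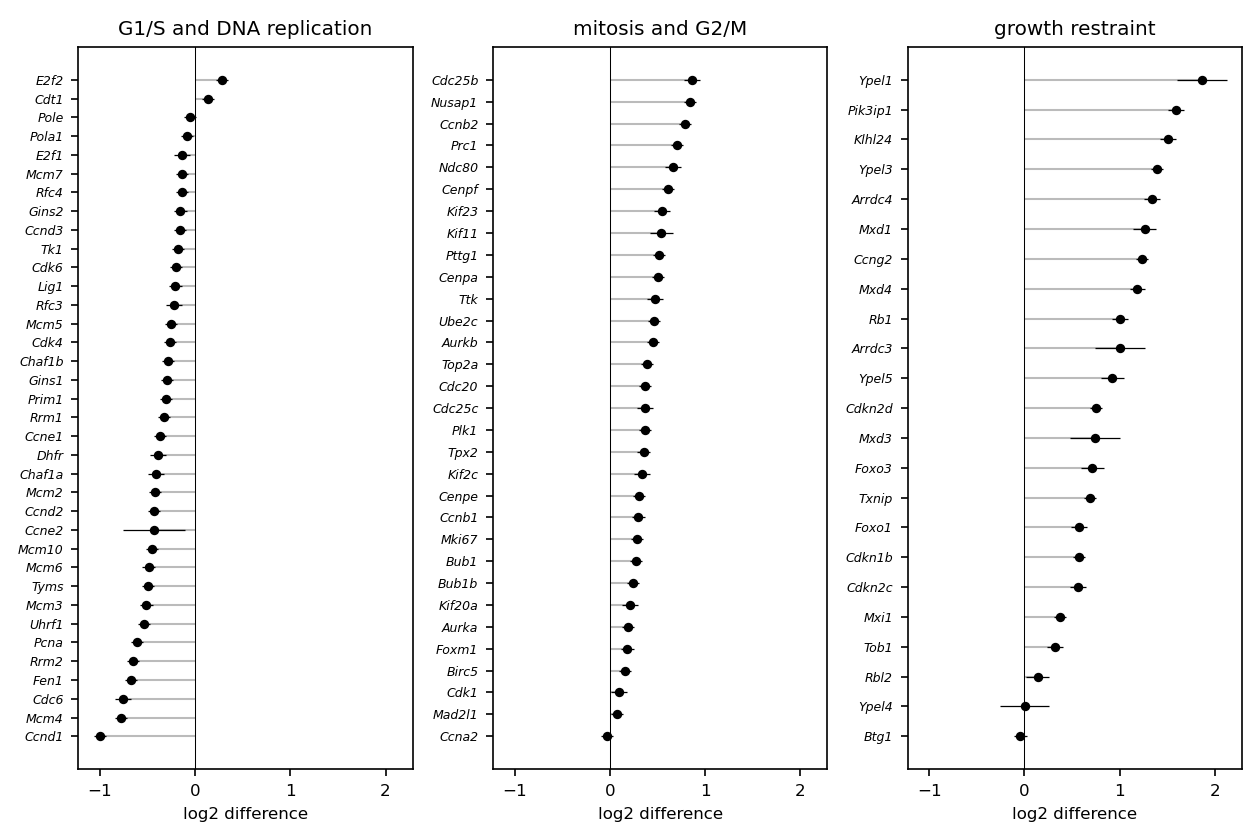
Log2 difference (siTfe3/Tfeb minus siGFP, untreated) of each measured member of 3 lists, ordered by size, with horizontal bars of 1 spot SD to each side, which hold printing and scanning error only. Members below 0 are 34 of 36 in the G1/S list, 1 of 31 in the mitosis list and 1 of 23 in the growth restraint list.

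Macrophage identity genes had 5 of 24 above 0, with a median of -0.17 and none at 2-fold. Fcgr1, the high-affinity IgG receptor, was lowest at -0.79. Adgre1, encoding F4/80, stood at 0.27. The summed relative signal of the macrophage list was 142736 with siGFP and 121814 with siTfe3/Tfeb. The summed signal of the other lists was small: 32.5 and 27.0 for fibroblast, 38.1 and 33.8 for epithelial, 31.7 and 34.5 for endothelial, 395 and 318 for lymphocyte and 99.2 and 79.4 for granulocyte and mast cell markers. Cd4 (207 with siGFP and 157 with siTfe3/Tfeb), Cd3e (150.1 with siGFP and 126 with siTfe3/Tfeb) and Elane (58.1 with siGFP and 52.1 with siTfe3/Tfeb) made up most of the last 2 sums. None of these markers was 2-fold different when measured on both arrays, though S100a8 and S100a9, measured on 1 array only, had bounds past 2-fold lower.

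The iron pair gives the same siRNA contrast on 2 further arrays that the untreated pair does not share. Of the 199 genes 2-fold higher without iron, 189 were measured there, 187 lay above 0 and 75 were again 2-fold higher. Of the 263 genes 2-fold lower, 253 were measured there, 252 lay below 0 and 124 were again 2-fold lower. By comparison 47.3% of the 13859 genes measured on all 4 arrays lay above 0 in the iron pair, and 0.853% of 14064 genes measured in that pair were 2-fold higher and 1.34% 2-fold lower. The higher genes had a median of 1.18 untreated and 0.85 with iron, and the lower genes -1.28 and -0.98. No gene was 2-fold in opposite directions. The 3 genes of opposite sign were Adgre5 (1.39 and -0.12), Olfr1500 (-1.16 and 0.45) and a gene model known by an identifier only, and they were named after their values were seen. Genes were chosen here for a large untreated difference, so a smaller value in the other pair is partly fixed by that choice. Over all 13859 genes the differences of the 2 pairs had a Pearson r of 0.78 and a Spearman rho of 0.73, across genes that are not independent of each other. The 4 cultures were 1 series, and whether the pairs were transfected separately is not given in the sources used here.

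**Figure D5:**
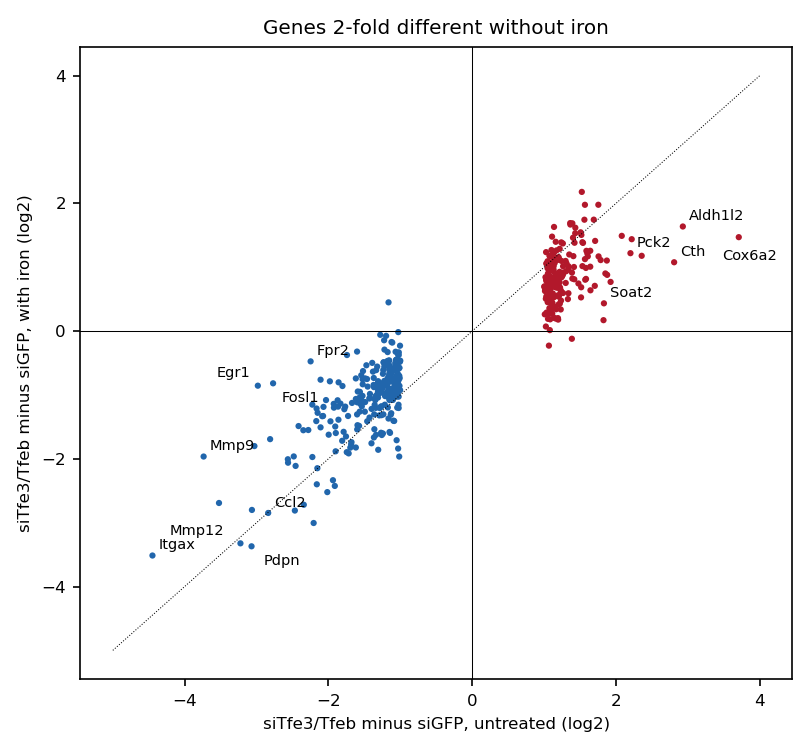
Each point is 1 of 442 genes at least 2-fold different without iron and measured on all 4 arrays, placed by its log2 difference without iron (horizontal) and with iron (vertical). Red is higher and blue lower without iron, and the dotted line marks equal differences. All but 3 points have the same sign on both axes, and Egr1, Fosl1 and Fpr2 lie far nearer to 0 with iron than without it.

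Some genes differed far more without iron than with it, a difference of differences that was not tested. Egr1 differed by -2.98 and -0.85, Fosl1 by -2.77 and -0.82, Fpr2 by -2.25 and -0.47 and Acod1 by -1.60 and -0.32. On the higher side Cox6a2 differed by 3.71 and 1.47, and Asns by 1.19 and 0.20. Other large values were of like size in both pairs. Ccl2 differed by -2.84 and -2.85, Mmp12 by -3.22 and -3.32, Pdpn by -3.07 and -3.37, Klhl24 by 1.51 and 1.55, and Adm by 1.52 and 1.51.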

How the data were processed

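Per the labels, total RNA of 4 RAW264 cultures was labelled with Cy3 and hybridised to single-colour Agilent mouse arrays. Per the submitters' processing notes, Agilent Feature Extraction 12.0.3.1 produced the scanner files. These deposited files hold a processed intensity per spot, background-subtracted and detrended within the array per the file headers. The authors' deposited matrix holds log2 values. The siTfe3/Tfeb minus siGFP difference in it followed that from the scanner with a slope of 1.0 and r of 1.0, and each of its 56602 probes was centred on its median, so scale, centring and direction are settled from the values. Its column medians were -0.0042 (siGFP), 0.0223 (siGFP with iron), -0.087 (siTfe3/Tfeb) and 0.0013 (siTfe3/Tfeb with iron).

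From each non-control log2 signal the array's own 75th percentile was subtracted. Outlier spots were dropped, at a cost of 3 probes, and repeated spots of a probe averaged. Of 56605 probes, 33764 were named by accession and 10176 by symbol through a RefSeq gene table (GRCm38.p6), and 12662 named no gene. The order of genes along a chromosome came from the same table. Each gene was read by its brightest probe over the 4 arrays. Of 183 other measured probes of called genes 162 had the same sign. Names follow the array design and that table. Promoter letters come from RefSeq (GRCm38.p6), for 11355 measured genes. Probe positions in exons or untranslated regions were not analysed here.

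Groups of 1 array allow no test. Spot SDs come from 1166 combinations of repeated probe and array, 1090 of them bright and 10 at the lowest levels, so those of dim genes are rough. The precision of every value is limited by the number of arrays. The code for calls at 2-fold was run on simulated arrays that held spot noise only. That run checks the code, leaves out the spread between cultures and is no test of the calls. Members and the 40 gene lists were chosen with earlier results of these data known. Named genes were the 4 family members, the 15 largest differences in each direction (leaving out names that are identifiers and genes whose probes disagree in sign), for each list at most 6 members and at most 3 more at its other end, stress and amino acid list members at 2-fold, and the 5 largest bounds in each direction. Alternatives were quantile normalization, median centring, normexp in limma 3.58.1 (offset 50) alone or with quantile normalization, the authors' matrix values, other probe rules, and other background filters.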

Additional observations from a re-analysis of the deposited data

Results flagged for a closer look

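Haptoglobin (Hp), an acute phase protein that binds free haemoglobin, had opposite differences in the pairs without and with iron: -0.64 without iron and 1.06 with it. Its relative signal was 121 with siGFP and 77.5 with siTfe3/Tfeb without iron, and 38.4 and 80.0 on the iron arrays. Only the siGFP level thus differed much between the pairs. The difference between the pairs was not tested.

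Probes that name no gene are used in no comparison here. Of 5115 such probes well above background on both untreated arrays, 50 were at least 2-fold higher with siTfe3/Tfeb and 50 at least 2-fold lower, 0.978% each, against 1.39% and 1.84% of named genes.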

How the results depend on the processing

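No named gene at 2-fold changed sign under any alternative run. The medians of 2 lists did, vacuolar ATPase subunits and MiT/TFE targets outside the lysosome, both nearer to 0 than their spot SD. The first was 0.0043 and the second 0.044 with quantile normalization. The counts of genes 2-fold higher and lower were 79 and 155 with normexp background correction, 83 and 142 with normexp and quantile normalization, and 927 and 1061 with no filter on dim probes, where genes below background enter. They lay within 1.5 times of 224 and 321 under the 7 other settings. The Tfe3 difference was -0.635 with quantile normalization, -0.65 with normexp and quantile normalization and -0.88 as the mean over both probes. Of the list medians 355 of 389 moved by less than the spot SD. With quantile normalization they were 0.51 for cytosolic tRNA synthetases, -0.32 for NF-kB genes, -0.019 for fatty acid genes and 0.47 for mitotic genes. With normexp they were -0.22 for MiT/TFE factors, -0.9985 for chemokines, -0.34 for pattern recognition receptors and 0.66 for growth restraint genes. With normexp and quantile normalization they were, in the order of these 8 lists, 0.49, -0.31, -0.013, 0.45, -0.19, -0.98, -0.29 and 0.65, and -0.56 for type I interferon genes. With the mean over all probes they were -0.0828 for MiT/TFE factors, -0.60 for pattern recognition receptors, -0.32 for immediate early genes, -0.64 for metalloproteinases, -0.10 for growth factors, 0.053 for vacuolar ATPase subunits, 0.33 for autophagy, -0.014 for fatty acid, 0.28 for glycolysis and 0.67 for growth restraint genes. With no filter they were 0.79 for stress response regulators, -0.19 for cytokines and -0.25 for metalloproteinases. The causes were not tested. Of single named genes 808 of 1007 values moved by less than the spot SD. Both totals include settings that leave values nearly as they were, such as stricter background filters and median centring. Of 104 named genes 73 moved by the spot SD or more with normexp and 80 with normexp and quantile normalization. With the mean over all probes 36 did. No paired analysis was possible because each group held 1 array and the labels give no replicate numbers, and for the same reason no replicate could be left out. Signal near background limits the dim genes.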

Other observations

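Some genes that were 2-fold different lay next to each other among the measured genes of a chromosome, a pattern looked for after the values were seen. On chromosome 16, Stfa2l1, Cstdc4 and Cstdc5, cystatin-family inhibitors of cysteine proteases, were all lower, with differences of -2.21, -2.47 and -2.34. Also on chromosome 16, the receptor genes Cd200r4 (-1.36) and Cd200r2 (-2.11) lay beside Ccdc80 (-3.52). On chromosome 5, the paired immunoglobulin-like receptors Pilra, Pilrb1 and Pilrb2 were lower by -2.15, -1.997 and -1.76, and on chromosome 19 so were Ifit2, Ifit3 and Ifit3b. Afp, Pf4 and Cxcl2 on chromosome 5 formed the last run of lower genes. The 1 run of higher genes held the glutathione transferases Gstm6 (1.18), Gstm3 (1.27) and Gstm1 on chromosome 3. Gstm1 differed by 1.16 at its chromosome 3 probe and by 1.31 at its brightest probe, which the array annotation places on chromosome 5. Families of this kind are close in sequence, and probes of 1 member may bind transcripts of another, which was not tested.

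In each of these 6 runs the genes named with a value had the same direction in the iron pair. Stfa2l1, Cstdc4 and Cstdc5 differed there by -3.01, -2.81 and -2.72, and Pilra, Pilrb1 and Pilrb2 by -2.15, -1.62 and -1.65. One of the other Pilra probes lay at 0.074 in the untreated pair, so its value depends on the probe.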
